A study of Drosophila melanogaster with 12 samples.

Results

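The genes described here are 10 components of the Piwi-interacting RNA (piRNA) pathway, measured by RNA-seq in whole fly heads. They were taken by symbol, with no threshold on their measured values, as *piwi*, *aub*, *AGO3*, *armi*, *zuc*, *Hen1*, *vas*, *spn-E*, *krimp* and *rhi*. All 10 had a row in the count table, which holds 17075 features, 123 of them transposon families. Another 38 genes of the pathway were matched in the same table and are described after them.

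RNA-seq was carried out on heads of flies aged 8–10 days post-eclosion, with 2 libraries for each of 3 genotypes. *Repo* > hTDP-43 flies (S05 and S06) expressed human TDP-43, an RNA-binding protein that aggregates in amyotrophic lateral sclerosis, under the pan-glial driver *Repo*-Gal4. *ELAV* > hTDP-43 flies (S11 and S12) expressed it under the pan-neuronal driver *ELAV*-Gal4. Control flies, hTDP-43 / + (S14 and S15), carried the transgene without a Gal4 driver, so the control lacks the driver as well as the expression, and the effect of a driver insertion cannot be told apart from that of hTDP-43. The stocks had been backcrossed for at least 5 generations to the same wild type strain, the *w1118* (*isoCJ1*) derivative of Canton-S. Small RNA libraries came from heads of *Repo* > hTDP-43 flies (S22, S23 and S24) and of *Repo* / + flies (S19, S20 and S21), which carry the driver without the transgene. The sex of the flies is not given in the labels. Whole heads hold neurons, glia, photoreceptors, fat body and blood cells, and in such samples a change in the number of cells of a type cannot be told apart from a change in RNA per cell.

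piRNAs are small RNAs that guide PIWI-clade Argonaute proteins to transposon transcripts, and the pathway is best known from the fly ovary and testis. Precursor transcripts from piRNA clusters are cut at the mitochondrial surface or in nuage, a perinuclear granule of germ cells, where Aub and AGO3 amplify piRNAs by cutting sense and antisense transcripts in turn. Piwi carries piRNAs into the nucleus and directs silencing of transcription. In somatic tissue transposons are also held down by short interfering RNAs, and Hen1 is known to act on both kinds of small RNA in flies.

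The RNA-seq libraries held between 22476024 and 41150009 counts. The 10 genes together accounted for 39.6 and 40.9 CPM (the count scaled by the library total) in *Repo* > hTDP-43, 24.7 and 25.3 in the neuronal libraries, and 23.04 and 19.7 in the controls. Their counts per library ran from 0 (*zuc*) to 409 (*armi*). Of the 3 pairs of replicates the controls were the least alike: chi-square over its degrees of freedom, across features, was 41.4 for them, 11.3 for *ELAV* > hTDP-43 and 6.61 for *Repo* > hTDP-43. In the heads of the control flies the neuronal markers *nSyb* and *Syt1* had mean levels of 1289 and 1756 CPM, whereas *osk*, a defining gene of the female germ line, had 0.629 CPM. The ovary and testis lists used below ranged widely there, and *grk* had 18.2, *orb* 135 and *bol* 416 CPM.

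**Figure D1:**
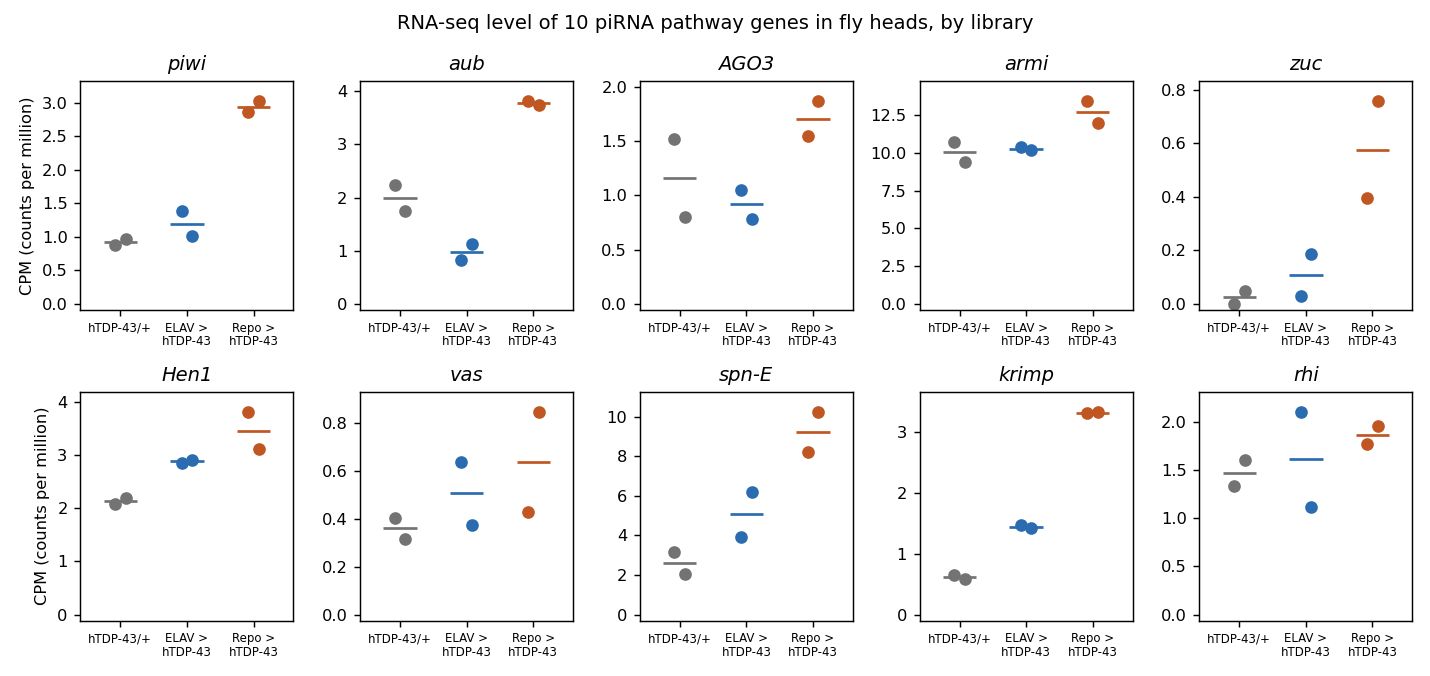
Levels of the 10 piRNA pathway genes in each RNA-seq library, in CPM on linear axes that differ between panels, with points for the 2 libraries of each genotype and a line at their mean. In CPM, which leaves out TMM scaling, the *Repo* > hTDP-43 libraries lie above both hTDP-43 / + libraries for every gene. *aub* is lowest in the *ELAV* > hTDP-43 libraries.

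With glial hTDP-43, 4 of the 10 genes rose and none fell. These were *piwi*, *zuc*, *spn-E* and *krimp*, with fold changes of 2.82 for *piwi*, 3.20 for *spn-E* and 4.78 for *krimp*, and with too few control counts of *zuc* for a firm fold. Tested with edgeR (quasi-likelihood, Benjamini-Hochberg adjusted p under 0.05) over 13507 features, calls were made for 27.8% of all features tested, 15.3% as higher and 12.5% as lower. In both *Repo* > hTDP-43 libraries all 10 genes lay above both controls in CPM, which held for 48.9% of the features tested. CPM leaves out the TMM scaling between libraries that the fold changes include. That scaling lowers the glial levels against the controls, with factors of 1.07 and 1.05 against 0.976 and 0.913. Separation of the libraries after it was not counted. The median log2 fold change of the 10 was 0.70, against 0.0023 over all features tested. One of the 4 called genes, *zuc*, passed the filter on low counts only through the *Repo* > hTDP-43 libraries. Fewer of the 10, and fewer of all features, were called without S05 or without S06. Such a fit leaves 1 glial library and takes its spread between replicates from the control pair alone. The log2 fold changes without S05 and without S06 were 1.54 and 1.44 for *piwi*, 1.83 and 1.49 for *spn-E*, and 2.27 and 2.24 for *krimp*. For *zuc* the value was 4.46 without S05, and it was not tested without S06.

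**Figure D2:**
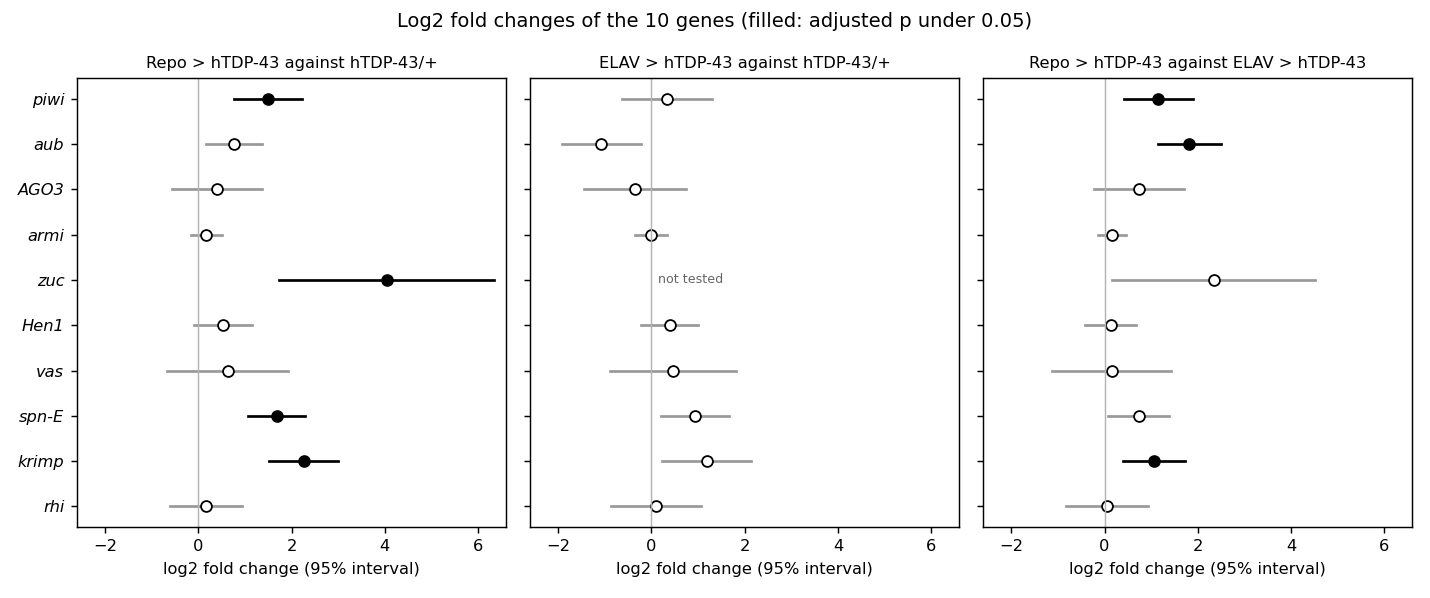
Log2 fold changes of the 10 genes in the 3 comparisons between genotypes, with 95% intervals from edgeR. Filled points passed an adjusted p of 0.05: *piwi*, *zuc*, *spn-E* and *krimp* for *Repo* > hTDP-43 against hTDP-43 / +, none for *ELAV* > hTDP-43, and *piwi*, *aub* and *krimp* for the direct comparison of the drivers.

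Among the PIWI-clade Argonautes, *piwi* encodes the nuclear member. It had 87 and 68 counts with glial hTDP-43, 50 and 27 with neuronal hTDP-43 and 28 and 40 in the controls, or 2.86 and 3.02, 1.39 and 1.01, and 0.872 and 0.972 CPM. The glial libraries stood apart from the other 4, and the lowest neuronal library was close to the controls. With glial hTDP-43 the log2 fold change was 1.50 ± 0.30 (SE, n = 2 per genotype, edgeR adjusted p = 0.0166).

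*aub*, which encodes the cytoplasmic partner of AGO3 in piRNA amplification, had 116 and 84 counts with glial hTDP-43, 30 and 30 with neuronal hTDP-43 and 72 and 72 in the controls. In CPM these were 3.81 and 3.74, 0.831 and 1.12, and 2.24 and 1.75. The 3 genotypes did not overlap, with the controls in the middle. Glial hTDP-43 gave a log2 fold change of 0.76 ± 0.25 (95% interval 0.16 to 1.36), which did not pass the threshold (edgeR adjusted p = 0.0658), although it did so when libraries were scaled by their totals alone (adjusted p = 0.0489) or by upper quartiles (adjusted p = 0.0482).

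*AGO3* encodes the third PIWI-clade protein. Its counts were 47 and 42 with glial hTDP-43, 38 and 21 with neuronal hTDP-43 and 49 and 33 in the controls. The controls alone spanned 0.802 to 1.52 CPM, and the upper one lay just under the lower glial library at 1.54 CPM. The log2 fold change of 0.40 ± 0.40 did not pass the threshold (95% interval -0.56 to 1.37).

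Of the genes for piRNA production and end formation, *zuc* encodes the endonuclease that cuts piRNA precursors at the outer mitochondrial membrane. It had 12 and 17 counts with glial hTDP-43, 1 and 5 with neuronal hTDP-43, and 0 and 2 in the controls. The ratio of the summed glial counts to the summed control counts, per library total, was 20.1, with a 95% interval of 5.08 to 174 that covers counting error only. The edgeR log2 fold change was 4.03 ± 0.96 (adjusted p = 0.0259), a value that depends on the handling of the control counts near 0.

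*armi*, which encodes the RNA helicase that carries precursors to the mitochondria, had 270 to 409 counts in every library. Its level ranged from 9.43 CPM in a control library to 13.4 CPM in a glial one, and its log2 fold change with glial hTDP-43 was 0.17 ± 0.14 (95% interval -0.16 to 0.50, not called). *Hen1*, the methyltransferase that protects the ends of piRNAs and siRNAs, had 3.81 and 3.11 CPM with glial hTDP-43, 2.85 and 2.91 with neuronal hTDP-43 and 2.09 and 2.19 in the controls. Both drivers thus lay above the controls, with log2 differences of 0.53 ± 0.26 for glial and 0.39 ± 0.26 for neuronal hTDP-43, neither past the threshold.

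Among the nuage genes, *spn-E* encodes a DExH helicase with a Tudor domain that is needed for piRNA amplification. It had 250 and 230 counts with glial hTDP-43, 142 and 166 with neuronal hTDP-43, and 101 and 84 in the controls. In CPM these were 8.22 and 10.2, 3.94 and 6.20, and 3.14 and 2.04, an order of glial, neuronal and control libraries without overlap. The log2 fold change with glial hTDP-43 was 1.68 ± 0.25 (edgeR adjusted p = 0.00744), and it kept its call without any 1 of the 4 libraries (highest adjusted p 0.0488).

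*krimp* encodes a Tudor-domain scaffold that holds unloaded AGO3 in nuage. Its counts were 101 and 75 with glial hTDP-43, 53 and 38 with neuronal hTDP-43, and 21 and 24 in the controls. In each genotype the replicates were close, at 3.32 and 3.34, 1.47 and 1.42, and 0.654 and 0.583 CPM, and the genotypes kept the order seen for *spn-E*. Glial hTDP-43 gave a log2 fold change of 2.26 ± 0.31 (edgeR adjusted p = 0.00592). Without S05, which leaves 1 glial library, it was 2.27 and was not called.

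*vas*, the germ cell DEAD-box helicase that organises nuage, had 10 to 23 counts in each library. With glial hTDP-43 it had 0.427 and 0.845 CPM against 0.405 and 0.316 in the controls, and its log2 fold change of 0.63 ± 0.54 was not distinguishable from 0 at this depth (95% interval -0.66 to 1.93).

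*rhi* encodes a heterochromatin protein 1 relative that marks germline piRNA clusters for transcription. It had 54 and 44 counts with glial hTDP-43, 76 and 30 with neuronal hTDP-43, and 43 and 66 in the controls. The *ELAV* > hTDP-43 libraries alone spanned 1.12 to 2.11 CPM, a range that holds all the other libraries. The log2 fold change with glial hTDP-43 was 0.17 ± 0.32 (95% interval -0.60 to 0.93), and its sign changed without S14.

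Several of the 10 share their locus with another gene in the Release 6 annotation, and whether reads were counted by strand is not given in the sources used here. *piwi* overlaps *SCAR*, whose log2 fold change with glial hTDP-43 was -0.25 (edgeR adjusted p = 0.0636), and *spn-E* overlaps *Pbp45*, at 0.23 (adjusted p = 0.673). *zuc* overlaps *CG34163*, which had 26 and 12 counts with glial hTDP-43 and 25 and 27 in the controls. *SCAR*, *Pbp45* and *CG34163* were not called, and whether shared reads contribute to the changes was not tested. *aub* overlaps *TTLL4A*, *armi* overlaps *CG46463* and *Hen1* overlaps *bsd*, for which no values are given. Beside the genes that were not called, *CG10936*, which overlaps *rhi*, fell by 0.67 on the log2 scale (edgeR adjusted p = 0.0315) and *vig*, which overlaps *vas*, fell by 0.48 (adjusted p = 0.022). *krimp* and *AGO3* overlap no other gene there.

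With neuronal hTDP-43, none of the 9 genes tested was called by edgeR, where 0.927% of all 12942 features tested were (0.487% as higher and 0.44% as lower), and DESeq2 also called 0. At an unadjusted p under 0.05 there were 3 of the 9. The share of all features at that cut was not counted, so the 3 have no background to be read against. *aub* had a log2 fold change of -1.07 ± 0.36 (edgeR adjusted p = 0.382), *spn-E* of 0.93 ± 0.31 (adjusted p = 0.374) and *krimp* of 1.18 ± 0.40 (adjusted p = 0.388). For all of these the libraries of the 2 genotypes did not overlap in CPM. Of the 10, 4 lay above the controls in both neuronal libraries, which 22.5% of the features tested did. Below the controls lay 1, *aub*, and the share of all features that did so was not counted. *zuc* was too low to be tested. For *piwi* the difference was 0.34 ± 0.41 (95% interval -0.62 to 1.30) and for *armi* -0.0088 ± 0.15 (95% interval -0.35 to 0.33). Without S14, *spn-E* was called (log2 fold change 1.23, adjusted p = 0.025). The comparisons of the drivers with hTDP-43 / + share the same control libraries and are not independent of each other.

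The drivers were therefore also tested directly, with the 6 libraries in 1 model. *piwi*, *aub* and *krimp* were higher with glial than with neuronal hTDP-43, and none of the 10 was lower. edgeR called 24% of 13699 features in this comparison, 10.7% as higher with glial hTDP-43. The difference was largest for *aub* among these 3, at 1.82 ± 0.29 on the log2 scale (95% interval 1.14 to 2.50, edgeR adjusted p = 0.00449). It was 1.15 ± 0.32 for *piwi* (adjusted p = 0.036) and 1.06 ± 0.28 for *krimp* (adjusted p = 0.0313). For *spn-E* the difference of 0.73 ± 0.28 missed the threshold (adjusted p = 0.0951), as did that of 2.34 ± 0.94 for *zuc* (adjusted p = 0.109), which rests on 29 against 6 counts. *armi*, *Hen1*, *vas* and *rhi* had differences between 0.057 and 0.17. Only *aub* kept its call without each of the 6 libraries (highest adjusted p 0.0423): without any 1 of S05, S06, S11 or S12 it was the only one of the 10 that was called.

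The split between higher and lower calls over all features moved with the scaling of the libraries. With glial hTDP-43 2066 of 3761 calls were higher after TMM normalization, but 2626 of 3496 with library totals alone and 2545 of 3607 with upper quartiles, settings that moved the median log2 fold change of all features to 0.17 and 0.13. In the direct comparison 1470 of 3294 calls were higher after TMM, and 2008 of 3069 and 1965 of 3075 with the other scalings. Under every one of these settings *piwi*, *zuc*, *spn-E* and *krimp* remained called as higher with glial hTDP-43 than in the controls.

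Of the other 38 genes of the pathway, 36 could be tested with glial hTDP-43, of which 5 rose and 1 fell. That is 16.7% of those tested, below the 27.8% called over all features. Their median log2 fold change was 0.075. They were counted by role. The nuage and Tudor-domain genes held 4 of the 5 increases and the decrease, among 14 tested. The 7 genes of nuclear silencing held 1 increase, and none of the 9 genes tested for cluster transcription and export, of the 4 for processing at mitochondria or of the 2 chaperones was called.

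**Figure D3:**
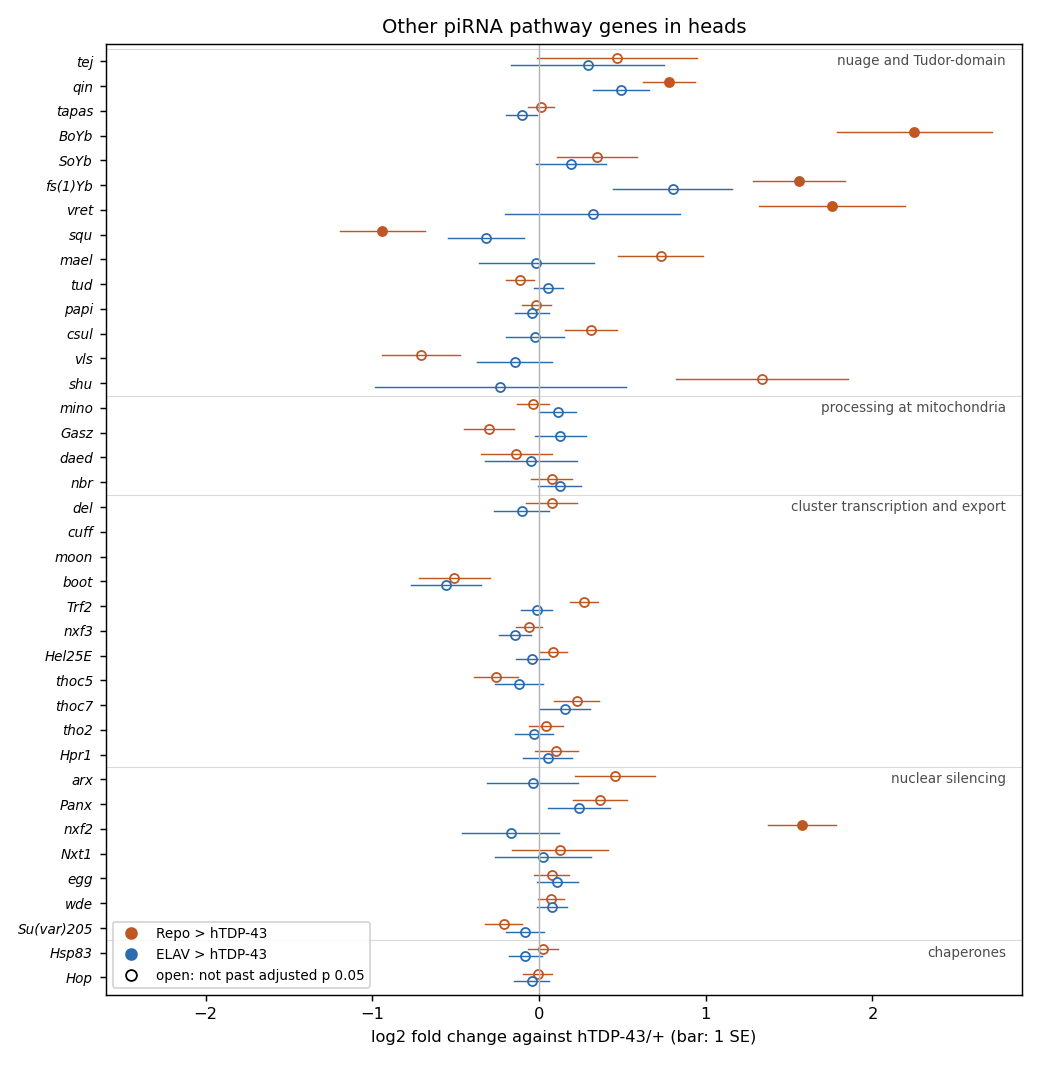
Log2 fold changes against hTDP-43 / + of the 38 other piRNA pathway genes, by role, for *Repo* > hTDP-43 and *ELAV* > hTDP-43, with bars of 1 SE. Filled points passed an adjusted p of 0.05, and genes without a point were too low to be tested. The 5 increases and 1 decrease with glial hTDP-43 lie in the nuage and nuclear silencing groups, and no gene was called with neuronal hTDP-43.

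*nxf2*, a subunit of the complex that silences transcription downstream of Piwi, had 211 and 156 counts with glial hTDP-43, 66 and 52 with neuronal hTDP-43 and 67 and 84 in the controls. The glial libraries were at 6.94 and 6.94 CPM and the other 4 between 1.83 and 2.09 CPM. The log2 fold change with glial hTDP-43 was 1.58 ± 0.20 (edgeR adjusted p = 0.00501), and the difference between the drivers was 1.74 ± 0.21 (adjusted p = 0.00124). Without any 1 library the adjusted p was at most 0.0509 against the controls and at most 0.0208 between the drivers.

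*fs(1)Yb*, known from somatic cells of the ovary where its product forms the body in which piRNAs are made, had 128 and 97 counts with glial hTDP-43, 69 and 73 with neuronal hTDP-43 and 49 and 44 in the controls. Its log2 fold change with glial hTDP-43 was 1.56 ± 0.28 (edgeR adjusted p = 0.0116). Its germline relative *BoYb* had 42 and 22 counts with glial hTDP-43, 0 and 6 with neuronal hTDP-43 and 7 and 9 in the controls, for a log2 fold change of 2.25 ± 0.46 (adjusted p = 0.017), and like *zuc* it passed the filter only through the glial libraries. *vret*, a Tudor-domain gene required for piRNA production, had 62 and 58 counts with glial hTDP-43 and 13 and 32 in the controls, for 1.76 ± 0.44 (adjusted p = 0.0299). These genes had fewer than 130 counts in every library.

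*qin*, which encodes a Tudor-domain partner of Aub and AGO3, rose by less, with 9.99 and 10.1 CPM against 5.23 and 5.18 in the controls (0.78 ± 0.16, edgeR adjusted p = 0.0159). *squ*, a nuage component, was the gene that fell, with 120 and 73 counts against 165 and 292 in the controls, a log2 fold change of -0.94 ± 0.26 (adjusted p = 0.0394). It lost its call when libraries were scaled by totals alone (adjusted p = 0.0669) or by upper quartiles (adjusted p = 0.0548). Its size depended on the control library used, at -0.64 without S15, which had the 292 counts, and -1.21 without S14. Without S05 or without S06, in fits that leave 1 glial library, fewer of the other pathway genes were called.

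With neuronal hTDP-43 edgeR called 0 of the 35 other pathway genes tested. An unadjusted p under 0.05, a cut not counted over all features, was found for 2 (*qin* and *boot*). *qin* had 7.43 and 7.62 CPM in these libraries, between the controls and the glial libraries. In the direct comparison 4 of 36 (11.1%, near the 10.7% of all features called higher) were higher with glial hTDP-43: *nxf2*, *vret*, *BoYb* and *Trf2*, which encodes a core promoter factor used at piRNA clusters. The difference was 0.27 ± 0.076 for *Trf2* (edgeR adjusted p = 0.0361), which had 393 and 409 CPM with glial and 291 and 312 CPM with neuronal hTDP-43.

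Genes of male reproductive tissues and of blood cells moved with the same libraries. Over all features tested with glial hTDP-43, 15.3% were called higher and 12.5% lower. Of the 23 testis markers matched, 20 were tested with glial hTDP-43, and 16 were higher and 1, *bol*, was lower. Without *bol*, which had between 344 and 461 CPM in every library, their summed level was 279 and 199 CPM with glial, 126 and 83.4 with neuronal hTDP-43 and 83.6 and 52.2 in the controls. Of the 11 accessory gland genes 7 were higher, with sums of 127 and 113, 108 and 50.6, and 39.2 and 24.8 CPM in the same order, and of the 4 hemocyte genes 3 were higher, with sums of 636 and 716, 392 and 350, and 394 and 309 CPM. Among the genes called higher, *sa* and *Acp29AB* had few control counts, at 3 and 7 and at 9 and 3. Like *zuc*, they passed the filter on low counts only through the glial libraries. The part of these lists in the changes of the pathway genes was not tested.

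The glial libraries were not alike in these lists. The level in S05 was higher than in S06 for 13 of the 16 testis markers called as higher (median ratio 1.72), the exceptions being *mia* (7.03 and 8.14 CPM), *fzo* (38.8 and 40.9 CPM) and *sa* (0.690 and 0.712 CPM). It was higher in S05 for 3 of the 10 piRNA genes (median ratio 0.926) and for none of *piwi*, *zuc*, *spn-E* and *krimp* (0.874). For the 5 other pathway genes that rose the median ratio was 0.994, for the 7 accessory gland genes 1.02 and for the 3 hemocyte genes 0.863. These ratios compare 2 libraries of the same genotype and carry no test.

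**Figure D4:**
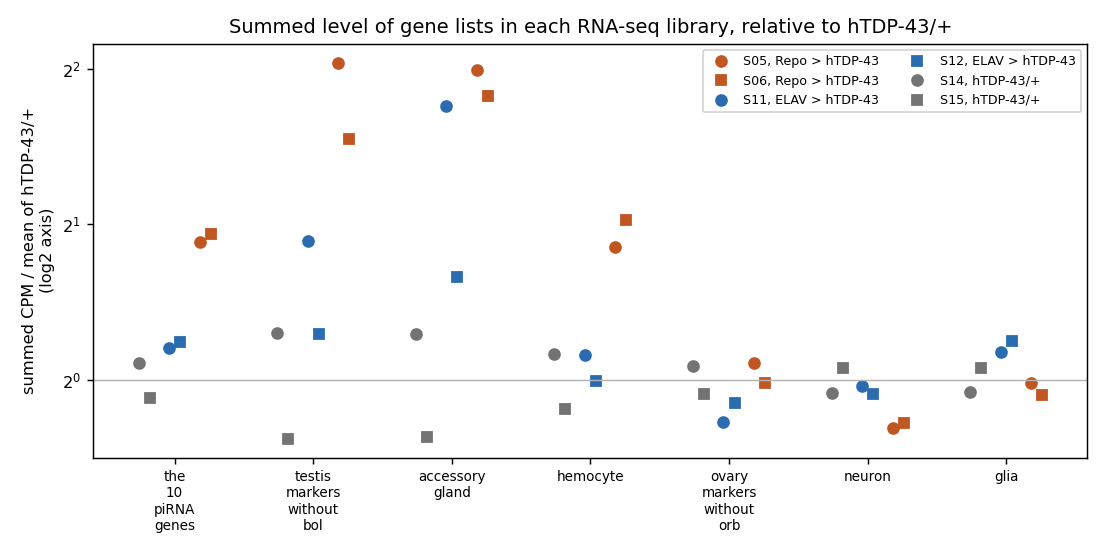
Summed CPM of gene lists in each RNA-seq library, divided by the mean of the hTDP-43 / + libraries, on a log2 axis. The sums of the 10 piRNA genes, the testis markers without *bol*, the accessory gland genes and the hemocyte genes are highest in the *Repo* > hTDP-43 libraries, the neuron sum is lowest there, and the ovary markers without *orb* are lowest in the *ELAV* > hTDP-43 libraries.

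No ovary marker was called higher. Of 18 listed, 9 could be tested with glial hTDP-43, 0 were higher and 1, *orb*, was lower, at 105 and 102 CPM against 135 and 136 in the controls. Without *orb*, which made up most of their sum, the ovary markers summed to 25.8 and 23.6 CPM with glial, 19.8 and 21.6 with neuronal hTDP-43 and 25.4 and 22.4 in the controls. Of 7 neuronal markers 6 were lower, and their sum was 6167 and 6326 CPM against 7227 and 8085. Of 8 glial markers 2 were higher and 3 lower, with log2 fold changes of 0.48 ± 0.088 for *repo* and 0.70 ± 0.096 for *moody* and of -2.34 ± 0.13 for *wrapper*, -0.97 ± 0.10 for *nrv2* and -0.40 ± 0.080 for *Eaat1* (highest edgeR adjusted p 0.0156). *roX1*, a male-specific RNA of dosage compensation, had mean levels of 3628 CPM with glial hTDP-43 and 3737 CPM in the controls, a log2 difference of -0.21 ± 0.11 (adjusted p = 0.183).

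The features whose pattern over the 6 libraries was most like that of each Argonaute gene were taken from 6012 candidates by Pearson correlation of log2 CPM. For *piwi* they were *CG6362* (r = 0.995), *CG33140*, *CG17237*, *SMC2* and *CR44953*. For *aub* they were *Cyp6t3* (r = 0.993), the LTR retrotransposon springer (r = 0.989), *Hsp70Ab*, *CG4069* and *NimB1*. All of these had the order seen for *aub*, with springer at 4209 and 4700 CPM with glial, 1269 and 1402 with neuronal hTDP-43 and 3055 and 2297 CPM in the controls. For *AGO3* they included *CG6628* (r = 0.994), *ppk27*, *CG31467* and *CG6726*, for which S14 lay above S15 as for *AGO3* itself. The libraries fall into 3 genotypes, the genes were picked as the highest of many, and the values are a description.

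Small RNA counts on the exons of the 10 genes gave a second readout in separate libraries. The small RNA table held between 31074082 and 37736599 counts per library, of which miRNAs took 76.2% to 85.2%, and the 10 genes received few reads. Of 123 exon rows of the 10 genes, 1 passed the filter on low counts (an exon of *Hen1*) and was not called (edgeR adjusted p = 0.819), where 9.66% of 20000 exon rows were. Counts were therefore also summed over the exons of 1 transcript per gene, a step added after the data had been seen, for which edgeR called 12.2% of 8450 genes.

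**Figure D5:**
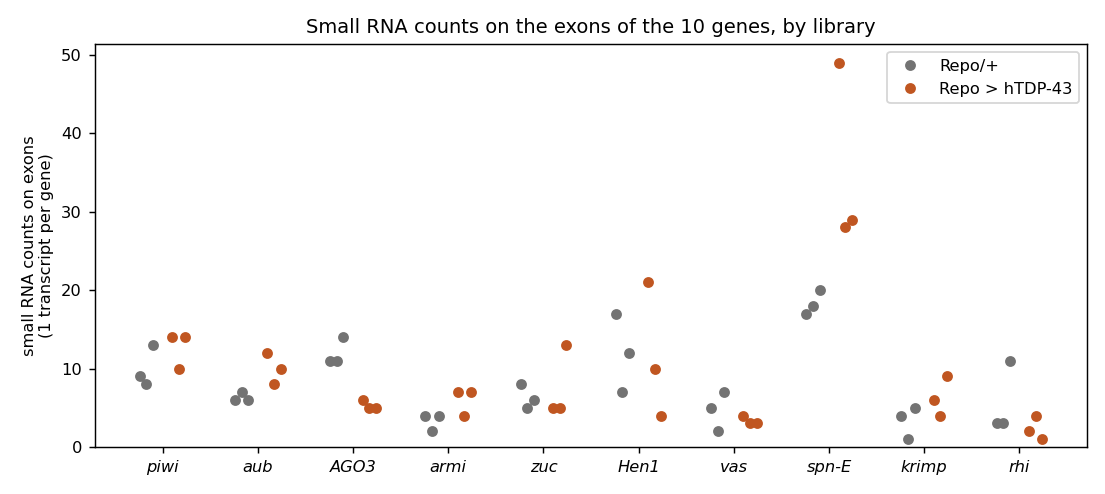
Small RNA counts on the exons of the 10 genes, summed over 1 transcript per gene, with points for the 3 libraries of *Repo* / + and of *Repo* > hTDP-43. *AGO3* counts are between 11 and 14 in *Repo* / + and 5 and 6 in *Repo* > hTDP-43, and *spn-E* has the highest count, 49, in 1 *Repo* > hTDP-43 library.

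Of the 4 of the 10 genes that could be tested in this way, *AGO3* was called. It had 11, 11 and 14 small RNA counts in the *Repo* / + libraries and 6, 5 and 5 in *Repo* > hTDP-43. The log2 difference was -1.41 ± 0.28 (n = 3 per genotype, edgeR adjusted p = 0.00931), and the ratio of the summed counts was 0.428, with a 95% counting interval of 0.222 to 0.791. The call was lost with library totals alone (adjusted p = 0.0597), with DESeq2 (adjusted p = 0.246) and without S21 (adjusted p = 0.053). Much of it lay in exon 2 of *AGO3*, singled out after its values were seen, which had 4, 7 and 7 counts against 0, 1 and 0. It is listed under each of the 4 *AGO3* transcripts, and these rows of the same counts are the 4 that were called without the filter on low counts.

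*spn-E* went the other way, with 17, 18 and 20 small RNA counts in *Repo* / + and 49, 28 and 29 in *Repo* > hTDP-43. The groups did not overlap, and the log2 difference was 0.67 ± 0.20, just short of the threshold (edgeR adjusted p = 0.0507). The library with 49 counts, S22, also had the most counts on exons of all genes (2380270, against 1289655 to 1732702 in *Repo* / +) and a TMM factor of 1.42. *piwi* had 9, 8 and 13 counts against 14, 10 and 14, and *Hen1* 17, 7 and 12 against 21, 10 and 4, with no call for either. On introns only *AGO3* and *rhi* had more than a few counts, with 43, 32 and 44 against 42, 27 and 31 for *AGO3* and 38, 48 and 46 against 67, 46 and 40 for *rhi*. Reads on annotated piRNA clusters made up 0.00446% to 0.00643% of the counts in all 6 libraries.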

How the data were processed

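RNA-seq was made from heads of 3 genotypes with 2 libraries each, and small RNA-seq from 2 genotypes with 3 libraries each. The study describes its RNA-seq libraries as biological replicates. The kind of replicate and the age of the flies are not given for the small RNA libraries in the sources used here. RNA-seq reads were mapped by the authors to dm3 with STAR, keeping those with up to 100 alignments, and counted them with TEtranscripts on genes and transposon families. Small RNA reads of 18 to 29 nt were mapped with Bowtie and assigned to annotated features with bedtools. Versions of these tools, and whether strand was used for the genes, are not given in the sources used here. Both deposited tables hold whole-number counts without normalization, and 0 of their sample columns were left unused. The reads carry no molecular identifiers, so intervals from counts cover counting error only.

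Libraries were grouped by their labels. Counts were fitted in R 4.3.3 with edgeR 4.0.16 (limma 3.58.1), with TMM normalization, filterByExpr and the quasi-likelihood test, and p-values were adjusted over all features tested, genes and transposons together. For each driver against hTDP-43 / + the model held only those 4 libraries, and for the direct test of the drivers it held 6. CPM values are counts over library totals without TMM factors, whereas fold changes include them. The scripts were tested on simulated data with known changes. These were placed only in features with more counts than *zuc* or *vas* had, so the test does not cover calls at such low counts. The genes named are the 10, the other pathway genes past the threshold, and for *piwi*, *aub* and *AGO3* the 5 features with the most similar pattern, from features that average 1 CPM or more and have an SD of 0.2 or more (log2 CPM, prior count 2). One of the features for *AGO3* is not reported here. The 10 genes and all lists were chosen with earlier results of these data known. Of 24 testis markers listed, 23 were matched.

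The alternatives were DESeq2 1.42.0, other scalings and filters, stricter thresholds, other sets of libraries in the fit, and leaving out each library. Levels per length, which had been planned, were not computed because transcript lengths were not used here. Levels of different genes, such as those of the neuronal and germline markers, are therefore not corrected for length. Genes were placed and their overlaps found by symbol in a RefSeq table of Release 6, and no coordinates or sequences are given.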

Additional observations from a re-analysis of the deposited data

Results flagged for a closer look

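The direct test between drivers separated 3 of the 10 genes, each higher with glial than with neuronal hTDP-43. Over all features 24% were called in this test and 10.7% were higher, and 47.9% had both glial libraries above both neuronal ones. The log2 difference was 1.82 for *aub*, 1.15 for *piwi* and 1.06 for *krimp* (edgeR adjusted p = 0.00449, 0.036 and 0.0313). *aub* is the one for which the difference joins a higher level than the control with glial hTDP-43 and a lower one with neuronal hTDP-43, neither of which passed its own test against hTDP-43 / +.

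The same test separated 4 of 36 other pathway genes, or 11.1%, which is near the 10.7% of all features called higher. The log2 difference was 1.74 for *nxf2*, 1.43 for *vret*, 3.38 for *BoYb* and 0.27 for *Trf2* (edgeR adjusted p = 0.00124, 0.0436, 0.0341 and 0.0361). The value for *BoYb* rests on 0 and 6 counts with neuronal hTDP-43, and the gene passed the filter on low counts only through the glial libraries in which it was high.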

How the results depend on the processing

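Leaving out 1 library changed the counts of RNA-seq calls. Such a fit leaves 1 library in a genotype, and its spread between replicates then comes from the other genotypes alone. Of the 10 genes, 4 were called with glial hTDP-43 and between 1 and 5 without 1 library, and 2 at an adjusted p under 0.01. For the other pathway genes 6 became 0 to 12 without 1 library, 12 being the count without S14, and 1 at 0.01. With neuronal hTDP-43 the 0 calls in each list became 0 to 1. Between the drivers 3 of the 10 became 1 to 4 and 4 other pathway genes became 1 to 7, with 1 and 1 at 0.01. Over all features the called share without 1 library ranged from 3.96% to 45.7% with glial hTDP-43, from 0.241% to 7.8% with neuronal hTDP-43 and from 6.7% to 33.9% between the drivers. With neuronal hTDP-43 the 120 calls over all features became 308 with DESeq2, 195 without a filter and 239 in a fit of all 6 libraries.

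Directions reversed only in comparisons in which the gene was not called. With glial hTDP-43 against the control, *rhi* ranged from -0.020 to 0.35 without 1 library. With neuronal hTDP-43 the ranges were -0.72 to 0.13 for *AGO3*, -0.068 to 0.053 for *armi*, -0.44 to 0.45 for *rhi*, -0.083 to 0.92 for *vret* and -0.084 to 0.028 for *Trf2*. Library totals alone gave 0.029 for *armi* and 0.024 for *Trf2*, and upper quartiles 0.0050 for *armi*. Between the drivers the ranges were -0.023 to 0.27 for *Hen1*, -0.39 to 0.61 for *vas* and -0.30 to 0.60 for *rhi*. For small RNA on exon rows of the 10 genes the 0 calls remained 0 without 1 library, and became 4 without a filter and 1 after summing exons per gene. The causes were not tested.

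No paired analysis was possible because the genotypes share no replicate numbers. With 2 libraries per genotype and few counts per gene, changes the size of those of *vas*, *AGO3* or *rhi* could not be resolved.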

Other observations

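A short list of genes of germline stem cells and early germ cells was also read. Of 4 tested with glial hTDP-43, 1 (25%) was called, where 27.8% of all features were. The gene was *bgcn*, a translational repressor that acts with *bam* in the testis and ovary. Its mean level was 1.80 CPM with glial hTDP-43 and 0.369 CPM in the controls, a log2 difference of 2.11 ± 0.41 (edgeR adjusted p = 0.0145), and with neuronal hTDP-43 the difference was 1.55 ± 0.49 (adjusted p = 0.34). *bam* was not called (1.40 ± 1.1, adjusted p = 0.379), at a mean of 0.342 against 0.125 CPM. It passed the filter on low counts only through the glial libraries. Of 6 sex-biased genes, 1 (16.7%) was called against the controls with each driver, where 27.8% (glial) and 0.927% (neuronal) of all features were. With glial hTDP-43 the yolk protein gene *Yp3* fell by 0.31 on the log2 scale (adjusted p = 0.0414). *Yp1* and *Yp2*, at 0.24 and -0.029, were not called there. With neuronal hTDP-43 *Yp1* was 2.02 ± 0.27 higher (adjusted p = 0.027), and *Yp2* and *Yp3*, at 1.25 and 0.47, were not called.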
